A study of Homo sapiens with 10 samples.

Results

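The genes described here are 10 factors and markers of the mesenchymal state: the transcription factors ZEB1, ZEB2, SNAI1, SNAI2 and TWIST1, the cadherins CDH1 and CDH2, the intermediate filament genes VIM and NES, and the matrix gene FN1. They were chosen by name from a table of 34567 genes, with earlier results of these data known, and each name matched 1 row. RNA was sequenced from 2 established human glioblastoma cell lines in which the homeobox transcription factor MEOX2 was lowered or raised. SNB19 cells were transiently transfected with a MEOX2 siRNA (siMEOX2, n = 3) or with a scrambled siRNA (NC, n = 3). U87 cells were infected with a MEOX2 lentivirus (OE, n = 2) or with an empty-vector lentivirus (EV, n = 2) and kept under puromycin selection. Both SNB19 groups therefore carry transfection reagent and both U87 groups carry lentivirus and selection, so line and delivery method cannot be told apart when SNB19 and U87 are set side by side. The labels do not say that the replicates came from separate cultures, so p-values measure the spread between these libraries, which may be technical.

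Epithelial-mesenchymal transition is a programme in which cells give up E-cadherin junctions and take on motility, vimentin filaments and fibronectin matrix. ZEB, SNAIL and TWIST factors bind E-box DNA and repress the E-cadherin gene, CDH1, and a change from E-cadherin to N-cadherin, the product of CDH2, is a classical sign of the programme. Glioma cells start without an epithelial layer: they commonly express N-cadherin, vimentin and nestin already, and the same factors are linked to their invasion and to the mesenchymal class of glioblastoma.

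The upstream DNA of 3 members that were lower in siMEOX2 cells and also in MEOX2 OE cells is shown because MEOX2 is a homeodomain protein and such proteins bind TAAT cores. RefSeq promoter windows (GRCh38.p14) covered 6 of the 10 members, and only bases upstream of every annotated transcript of the gene are printed. Capitals mark TAAT on either strand (written TAAT or ATTA) and TGACGTCA, the cyclic AMP response element; the E-box CACCTG, on either strand, was also searched and is not in these 3 windows.
VIM, chr10:17227991-17228240, plus strand: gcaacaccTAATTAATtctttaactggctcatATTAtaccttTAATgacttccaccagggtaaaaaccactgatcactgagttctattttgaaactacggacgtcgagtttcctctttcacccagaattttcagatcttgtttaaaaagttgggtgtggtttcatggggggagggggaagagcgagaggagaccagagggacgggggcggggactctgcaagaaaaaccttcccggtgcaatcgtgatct
NES, chr1:156677408-156677657, minus strand: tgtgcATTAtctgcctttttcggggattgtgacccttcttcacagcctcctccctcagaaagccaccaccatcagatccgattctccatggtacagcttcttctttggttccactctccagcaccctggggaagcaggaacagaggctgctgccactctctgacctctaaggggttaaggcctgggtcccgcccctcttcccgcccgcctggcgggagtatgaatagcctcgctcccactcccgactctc
FN1, chr2:215436173-215436318, minus strand: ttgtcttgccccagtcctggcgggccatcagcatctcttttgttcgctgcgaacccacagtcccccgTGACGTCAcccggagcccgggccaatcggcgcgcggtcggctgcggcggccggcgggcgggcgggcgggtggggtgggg

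The VIM window held 5 overlapping or separate TAAT cores, 3 of them joined in TAATTAAT, whereas NES held 1 and FN1 held 0 in its full 250 bases. Over 35114 promoter windows of 250 bases, 47.4% held TAAT on either strand, so its presence is ordinary. The longer palindrome TAATTA was in 4.35% of windows and, among the members with a window, in VIM alone. The ZEB2 window held 3 TAAT cores and no CACCTG. TGACGTCA was in 1.65% of all windows. CACCTG on either strand was in 17.5% of windows and, among the members, only in 2 of the 7 ZEB1 windows. These letter matches describe the DNA, and binding was not measured.

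The libraries held 12533775 to 16560324 counts, and every pair of replicates differed by more than counting noise, so none was a repeat of another. MEOX2 levels matched the groups of the sample titles. FPKM is the count scaled to gene length and to the total count of the library. MEOX2 stood at 6.01, 6.53 and 7.09 FPKM in NC and at 1.38, 1.11 and 1.39 in siMEOX2. The log2 fold change was -2.42 (SE 0.14, adjusted p = 9.1e-05). MEOX2 had 0 counts in both EV libraries and 160 and 145 FPKM in OE. That was at least 3835-fold higher when 3 counts over the EV group are taken as the floor. The U87 comparison therefore starts from no detected MEOX2 mRNA, whereas the SNB19 comparison starts from a measurable level and ends at a lower one. Astrocyte markers were uneven. GFAP lay between 0.089 and 0.397 FPKM, S100B at 0.223 or below, and AQP4 at 0 in 9 libraries and 0.0212 in 1. By contrast, SLC1A3 of the same glial list stood at 16.4 to 17.5 FPKM in NC, at 12.2 to 14.3 in siMEOX2 and at 2.83 to 7.85 in U87. The neural progenitor factor SOX2 stood at 12.4 to 14.4 FPKM in NC, at 5.18 to 6.94 in siMEOX2 and at 0.0952 or below in U87. The leukocyte gene PTPRC stayed at 0.0278 FPKM or below.

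EV replicate 1 stood apart from every other library. Its correlation with EV replicate 2 (Pearson's r of log2 CPM, counts scaled to the library total, across genes) was 0.968, against 0.997 to 0.998 in the other pairs of replicates. Ribosomal protein genes took 12.9% of its counts, against 3.99 to 6.64% elsewhere. Short genes were over-represented in it relative to EV replicate 2. The median log2 ratio of EV replicate 1 to EV replicate 2 ran from 0.47 in the shortest eighth of genes to -1.17 in the longest. Neither EV library was compared by length with another group. Among the members, EV replicate 1 was lower in FPKM than EV replicate 2 for FN1, ZEB2, ZEB1, CDH2, SNAI2 and TWIST1 and higher for VIM and NES. TWIST1 changes side with the scaling, at 45.6 and 37.6 CPM in EV replicates 1 and 2 after TMM scaling (trimmed mean of M values). The part of this length pattern in the U87 values was not tested. The overexpression result of each tested member except CDH1, and of each related list, is therefore also given without EV replicate 1. That leaves a lone EV library, which is then assumed to vary like the other groups.

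**Figure D1:**
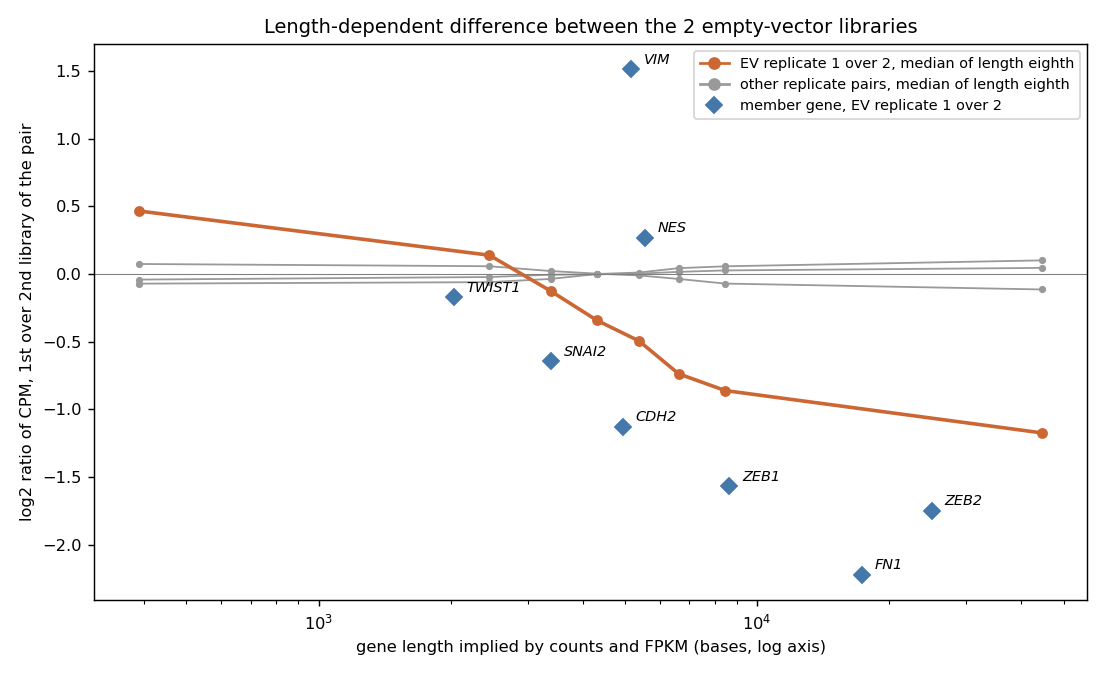
Median log2 ratio of CPM between 2 replicate libraries, by eighths of gene length (x, bases, log axis; grey, other groups' first against second replicate), with 8 members as diamonds (CDH1 and SNAI1, at or near 0, are left out). The empty-vector line falls from 0.47 to -1.17 while the grey lines stay near 0, and VIM lies far above the orange line at its length while FN1 lies far below it.

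Differences were tested with edgeR's quasi-likelihood F test in 1 fit of the 10 libraries, with p-values adjusted by the Benjamini-Hochberg method over 17312 genes and a call at an adjusted p under 0.05. Standard errors are the log2 fold change divided by the root of its F statistic. All members but SNAI1 passed the filter on low counts. The 2 EV libraries disagree and all 4 groups share 1 estimate of the spread: the knockdown comparison called 2725 genes with both, 8626 without EV replicate 1 and 8700 without EV replicate 2. The SNB19 comparison is therefore also given from the 6 SNB19 libraries alone.

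**Figure D2:**
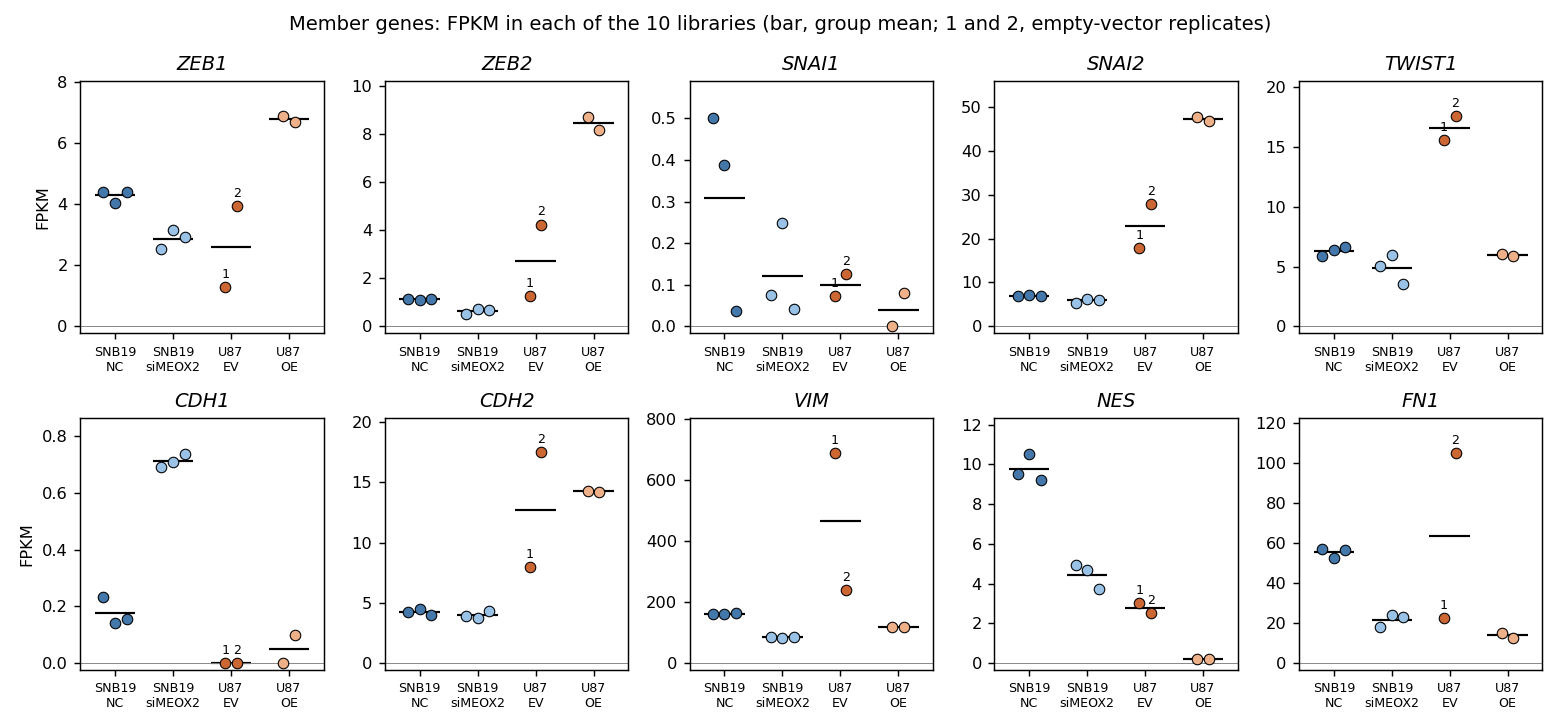
FPKM (y, linear from 0, own scale for each gene) of the 10 members in each library, with a bar at the group mean and the empty-vector replicates numbered. VIM, NES and FN1 lie lower in siMEOX2 than in NC and lower in OE than in EV, whereas ZEB1, ZEB2 and SNAI2 lie lower in siMEOX2 and higher in OE.

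The first question was how the members changed when MEOX2 was lowered in SNB19. FN1 and NES fell and CDH1 rose. VIM, ZEB1, ZEB2, SNAI2 and TWIST1 had lower values as well, which passed the test when the SNB19 libraries were fitted alone and not in the fit of 10 libraries. CDH2 passed neither. In the fit of 10 libraries 3 of 9 tested members were called, beside 15.7% of all genes tested. With SNB19 alone 8 of 9 were called, 7 of them lower and 1 higher, beside a background of 55.9%. The same 8 directions were called without EV replicate 1, beside 47.1%. FPKM did not overlap between NC and siMEOX2 for 7 of the 9, beside 57.9% of all genes tested. The median log2 fold change of the 9 members was -0.67, against -0.0013 over all genes tested.

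Among the transcription factors, ZEB2, a zinc-finger repressor of CDH1, stood at 1.13, 1.11 and 1.15 FPKM in NC and at 0.531, 0.717 and 0.677 in siMEOX2. The groups did not overlap, and the log2 fold change of -0.91 (SE 0.28) had an adjusted p of 0.0583 in the fit of 10 libraries and of 1.95e-07 with SNB19 alone. Its paralog ZEB1 went from 4.40, 4.05 and 4.40 FPKM to 2.53, 3.15 and 2.93, again without overlap. The log2 fold change was -0.67 (SE 0.24, adjusted p = 0.096, and 1.35e-06 with SNB19 alone). SNAI2, which encodes the repressor SLUG, showed a smaller difference, from 6.87, 7.11 and 6.93 FPKM to 5.37, 6.32 and 6.07. Its log2 fold change was -0.33 (SE 0.11, adjusted p = 0.0731, and 0.00567 with SNB19 alone).

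TWIST1, a basic helix-loop-helix factor of mesoderm development, had 5.88, 6.35 and 6.66 FPKM in NC and 5.07, 5.96 and 3.56 in siMEOX2. These groups overlapped, since 1 siMEOX2 library lay above the lowest NC library. Its log2 fold change was -0.46 (SE 0.19, adjusted p = 0.139, and 0.0138 with SNB19 alone). SNAI1, which encodes SNAIL, was scarcely counted: NC held 14, 9 and 1 reads and siMEOX2 held 2, 6 and 1. SNAI1 did not reach the filter on low counts, and a fit without that filter gave it an adjusted p of 0.438, so that no difference was detectable at this depth.

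The cadherins behaved unequally. CDH1 was counted 24, 12 and 15 times in NC (0.235, 0.142 and 0.156 FPKM) and 67, 63 and 64 times in siMEOX2 (0.691, 0.710 and 0.735 FPKM). All 3 knockdown libraries lay above all 3 controls, a 3.72-fold rise (log2 1.89, SE 0.49, adjusted p = 0.0354). CDH1 nonetheless stayed below 1 FPKM in every library. CDH2 had 4.28, 4.48 and 4.03 FPKM in NC against 3.94, 3.78 and 4.33 in siMEOX2, with overlapping groups. Its log2 fold change was -0.18 with a 95% interval from -0.56 to 0.21 (adjusted p = 0.547), and -0.16 with SNB19 alone (interval from -0.36 to 0.03, adjusted p = 0.148).

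Of the filament genes, NES, which encodes the progenitor filament nestin, fell from 9.52, 10.5 and 9.22 FPKM to 4.93, 4.68 and 3.72. The 2.33-fold decrease (log2 -1.22, SE 0.20, adjusted p = 0.00404) was the one member call that remained when any single SNB19 library was left out of the fit of 10. VIM, the vimentin gene and the highest member in all 4 groups by group mean, stood at 160, 160 and 163 FPKM in NC and at 86.1, 81.4 and 84.8 in siMEOX2. The groups lay far apart for their spread, with a log2 fold change of -1.03. The fit of 10 libraries gave it an SE of 0.38 and an adjusted p of 0.104, whereas SNB19 alone gave an SE of 0.046 and an adjusted p of 2.18e-13.

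FN1, which encodes the matrix protein fibronectin, fell from 57.0, 52.8 and 56.6 FPKM to 17.9, 24.2 and 23.2. At 2.72-fold lower (log2 -1.44, SE 0.36, adjusted p = 0.0272) it had the largest decrease among the 9 tested members. The FN1 call was lost when any SNB19 library was left out of the fit of 10 (adjusted p from 0.076 to 0.104), and the CDH1 call likewise. With SNB19 alone the adjusted p of FN1 was 1.66e-12 and that of CDH1 1.77e-06.

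**Figure D3:**
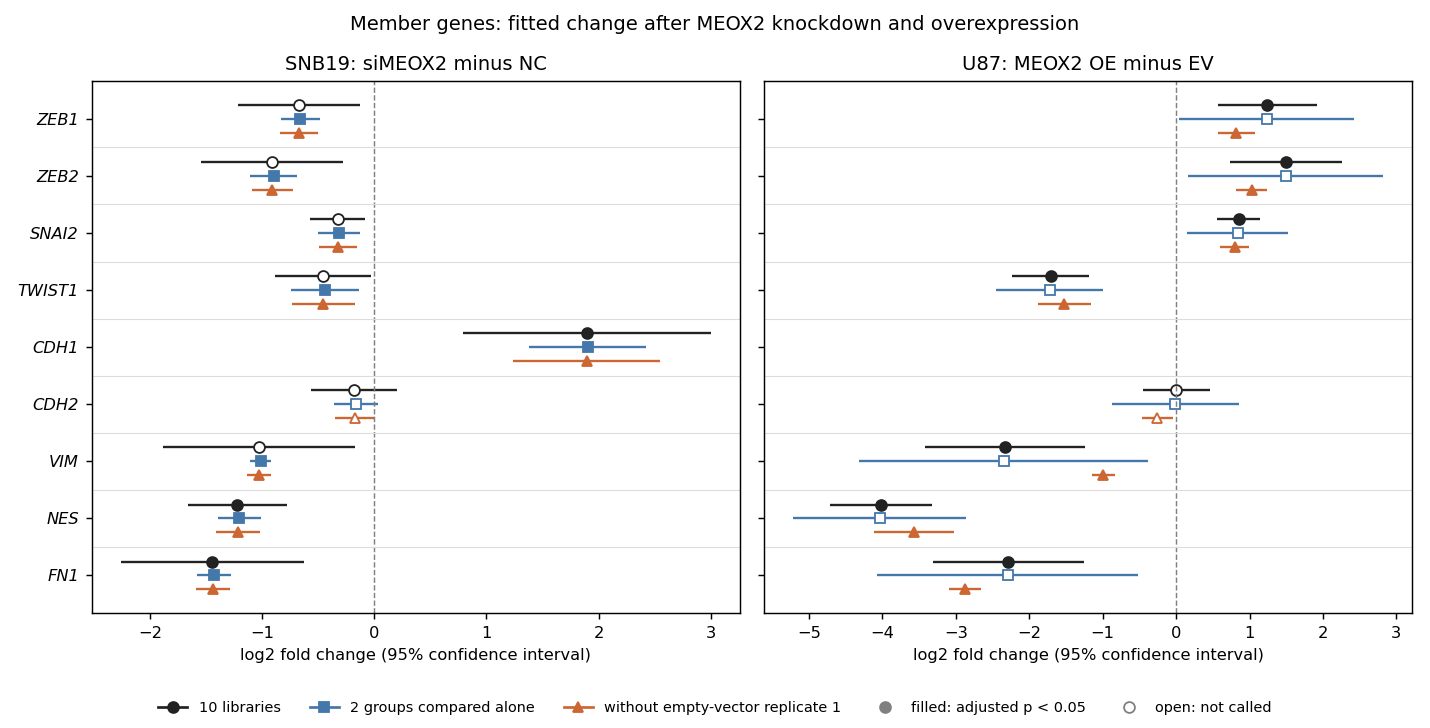
Fitted log2 fold change with its 95% confidence interval for each tested member after knockdown (left) and overexpression (right), in the fit of 10 libraries, of the 2 groups alone, and without empty-vector replicate 1; filled symbols have an adjusted p under 0.05. SNAI1 was not tested and CDH1 is left out on the right, where its fitted value rests on 9 counts. Left, the estimates hardly move and only their intervals do; right, VIM moves from -2.33 to -0.99 without that library.

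Genes with related roles gave the setting of these changes in SNB19. Of 24 tested genes tied to the mesenchymal glioma state, 8 were lower and 2 higher, against 8.75% of all genes lower and 6.99% higher. The secreted glycoprotein CHI3L1 fell from 139 ± 4.28 to 53.8 ± 2.63 FPKM (SD, n = 3, log2 -1.46), the matrix protein TNC from 102 ± 3.46 to 43.4 ± 3.56, and the galectin LGALS1 from 639 ± 49.3 to 226 ± 14.6. CEBPD, a transcription factor of the same list, rose from 5.65 ± 1.3 to 20.3 ± 0.769. The list thus held calls in both directions, most of them lower.

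Most calls among other adhesion genes were lower. Of 8 tested cadherin and catenin genes 5 were lower and 0 higher, among them CDH13 (3.03 ± 0.118 to 1.21 ± 0.0502 FPKM) and CDH4 (15.2 ± 0.301 to 7.90 ± 0.130). Of 15 focal adhesion genes 5 were lower, including the tensin gene TNS1 (log2 -1.37) and the parvin gene PARVA (log2 -0.96), and 0 were higher. Of 13 fibronectin receptors and partners 2 were lower, while the syndecan gene SDC4 was higher, from 15.5 ± 0.649 to 52.1 ± 4.16 FPKM. Of 7 intermediate filament genes 2 were lower, with the muscle filament gene DES at 3.18 ± 0.217 in NC and 0.792 ± 0.121 in siMEOX2.

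Epithelial junction and keratin genes gave calls in both directions. Of 21 tested, 3 were higher and 3 lower: the claudin gene CLDN1 rose from 2.09 ± 0.130 to 9.69 ± 2.12 FPKM, whereas KRT19 fell from 2.74 ± 0.182 to 0.406 ± 0.0371 and CLDN4 from 4.69 ± 0.116 to 2.01 ± 0.505. Of 16 EMT inducers outside the members 2 were called, both lower: SOX9, from 18.3 ± 0.740 to 5.32 ± 0.432 FPKM, and the growth factor gene TGFB1, from 101 ± 4.46 to 64.3 ± 6.39. Endothelial marker genes also had lower levels, with their summed level at 5.10 to 5.68 FPKM in NC and at 0.784 to 1.17 in siMEOX2, carried by PECAM1 (4.27 ± 0.278 to 0.729 ± 0.136), and their part in the members' changes was not tested. Epithelial markers summed to 2.77 to 3.38 FPKM in NC and 0.761 to 0.801 in siMEOX2. This too was carried by 1 gene, the KRT19 named above, with EPCAM, KRT5 and KRT14 each at 0.434 or below in both groups. Glial and glioma markers, a list that also holds NES and SOX9, summed to 72.4 to 74.3 FPKM in NC and 38.9 to 41.3 in siMEOX2, with 4 of 9 tested genes lower and 0 higher, and SOX2 among the lower ones (log2 -1.21, adjusted p = 0.00263). The part of these markers was not tested either. Without EV replicate 1 these lists gave more calls, for example 16 lower and 7 higher of 24 mesenchymal glioma genes and 12 lower and 1 higher of 15 focal adhesion genes, against 24.6% of all genes lower and 22.5% higher.

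The second question was how the members changed when MEOX2 was introduced into U87. ZEB1, ZEB2 and SNAI2 rose, and VIM, NES, TWIST1 and FN1 fell, so that 7 of 9 tested members were called beside 26.2% of all genes tested. These 7 were also called, in the same directions, without EV replicate 1, where the background was 38.9%. FPKM did not overlap between EV and OE for the same 7, beside 52.4% of all genes tested. With the 4 U87 libraries fitted alone no member and 0 of 14180 genes passed, with 2643 genes at an unadjusted p under 0.05 in edgeR; on all 10 libraries DESeq2 called 5879 genes and limma on FPKM 3832. The median log2 fold change of the 9 members was 0.0013, against -0.017 over all genes tested.

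ZEB2 had 1.25 and 4.24 FPKM in EV and 8.71 and 8.19 in OE. Both OE libraries lay above both controls, with a log2 fold change of 1.50 (SE 0.34, adjusted p = 0.0128), and of 1.03 (SE 0.10) without EV replicate 1. ZEB1 went from 1.29 and 3.94 FPKM to 6.89 and 6.68, a log2 fold change of 1.24 (SE 0.30, adjusted p = 0.0166), and of 0.82 (SE 0.12) without that library. Against EV replicate 2 alone, the rise was thus 2.04-fold for ZEB2 and 1.77-fold for ZEB1.

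SNAI2 depended less on the control chosen. It rose from 17.8 and 27.8 FPKM to 47.7 and 46.8, with a log2 fold change of 0.85 (SE 0.13, adjusted p = 0.00211), of 0.80 without EV replicate 1 and of 0.98 without EV replicate 2. TWIST1 moved the other way, from 15.6 and 17.6 FPKM in EV to 6.08 and 5.88 in OE. Its 3.27-fold decrease (log2 -1.71, SE 0.23, adjusted p = 0.00118) was 2.87-fold without EV replicate 1. SNAI1 had 2 and 3 counts in EV and 0 and 2 in OE and was not tested.

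CDH1 had 0 counts in both EV libraries, where 3 counts, the limit that a count of 0 allows, correspond to 0.186 and 0.213 CPM. In OE it had 0 and 9 counts, and with all 9 in 1 library no change is read from it. CDH2 stood at 7.94 and 17.5 FPKM in EV and at 14.3 and 14.2 in OE, with both OE values between the controls. Its log2 fold change was 0.0013 with a 95% interval from -0.46 to 0.46. Without EV replicate 1 it was -0.26 (adjusted p = 0.0506) and without EV replicate 2 it was 0.42 (adjusted p = 0.00177), so that the direction for CDH2 follows the EV library used.

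NES fell the most of the 9 tested members, from 3.04 and 2.51 FPKM in EV to 0.187 and 0.221 in OE. The decrease was 16.2-fold (log2 -4.02, SE 0.31, adjusted p = 8.04e-05), and 11.8-fold without EV replicate 1. VIM had 687 and 241 FPKM in EV and 117 and 119 in OE. Both OE libraries lay below both controls, but the size rested on EV replicate 1: the decrease was 5.03-fold (log2 -2.33, SE 0.48, adjusted p = 0.00884) with it and 1.99-fold (log2 -0.99, SE 0.075) without it.

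FN1 had 22.5 and 105 FPKM in EV and 15.2 and 12.8 in OE. The groups did not overlap, and the log2 fold change was -2.29 (SE 0.46, adjusted p = 0.00729). It was -2.88 without EV replicate 1 and -1.11 without EV replicate 2. The calls of VIM, ZEB1, ZEB2 and FN1 were lost when either OE library was left out, with adjusted p from 0.0578 to 0.085.

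In the related lists, mesenchymal glioma genes again held more lower than higher calls, with 8 lower and 1 higher of 24 against 14.9% and 11.3% of all genes tested. CHI3L1 fell from 49.1 ± 11.3 to 6.10 ± 0.156 FPKM (SD, n = 2), the matrix gene TGFBI from 43.1 ± 15.5 to 7.18 ± 0.153, and SPARC, which encodes another matrix protein, from 58.7 ± 14.2 to 14.7 ± 0.795. Without EV replicate 1 the list had 9 lower and 6 higher calls, against 18.4% and 20.4% of all genes. LGALS1 went from a log2 fold change of -2.0 to one of -0.52 with that library left out.

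Of 7 intermediate filament genes 3 fell in OE, all of them lamins: LMNB1 (log2 -1.77), LMNA (log2 -1.34) and LMNB2 (log2 -0.77). With EV replicate 1 left out 3 of 8 tested fell, and LMNA was at -0.67. Of 13 fibronectin receptors and partners 1 rose and 4 fell, among them SDC4 (log2 -0.90), the transglutaminase gene TGM2 (log2 -0.84) and the integrin gene ITGA5 (log2 -0.80), and 1 rose and 7 fell of 14 without EV replicate 1. Focal adhesion genes gave 1 higher call, LIMS1 (13.1 ± 7.24 to 61.3 ± 3.01 FPKM), and 2 lower calls, BCAR1 and VASP, of 15, and without EV replicate 1 they gave 2 and 7. Cadherin and catenin genes gave 2 higher calls, CDH13 (log2 0.86) and CTNNA1 (log2 0.54), and 1 lower call, CDH24 (log2 -1.39), of 8, and also 2 and 1, of 9, without that library.

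Of 16 EMT inducers 2 rose in OE, the mesenchymal homeobox gene PRRX1 (13.0 ± 5.08 to 27.1 ± 0.922 FPKM) and SMAD2 (1.78 ± 0.590 to 3.16 ± 0.0572), and 2 fell, TGFB1 (105 ± 20.0 to 58.2 ± 0.605) and FOXC2. Leaving out EV replicate 1 gave that list 2 higher and 8 lower calls and moved TGFB1 from a log2 fold change of -1.13 to -0.60. Epithelial junction and keratin genes gave 4 higher and 5 lower calls of 21, with CLDN1 higher (log2 1.62) and the plakophilin gene PKP3 lower (log2 -2.11). That list had 4 and 4 calls without EV replicate 1. Summed endothelial markers stood at 0.720 to 0.897 FPKM in EV and at 0.190 to 0.293 in OE, epithelial markers at 0.721 to 1.13 and at 0.333 to 0.375, and neuronal markers at 2.39 to 4.43 and at 1.64 to 1.99. Among the neuronal ones SNAP25 fell from 2.53 to 0.589 FPKM (group means, log2 -2.31, adjusted p = 0.00274). Glial and glioma markers, a list that also holds NES, summed to 14.1 to 31.5 FPKM in EV and to 29.2 to 31.7 in OE. Of 9 tested, 1 was lower, NES, and 1 higher, OLIG2 (1.50 ± 0.145 to 6.21 ± 0.401 FPKM, log2 1.78, adjusted p = 0.00107). The OLIG2 value was 2.18 without EV replicate 1. The part of these markers in the members' changes was not tested.

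**Figure D4:**
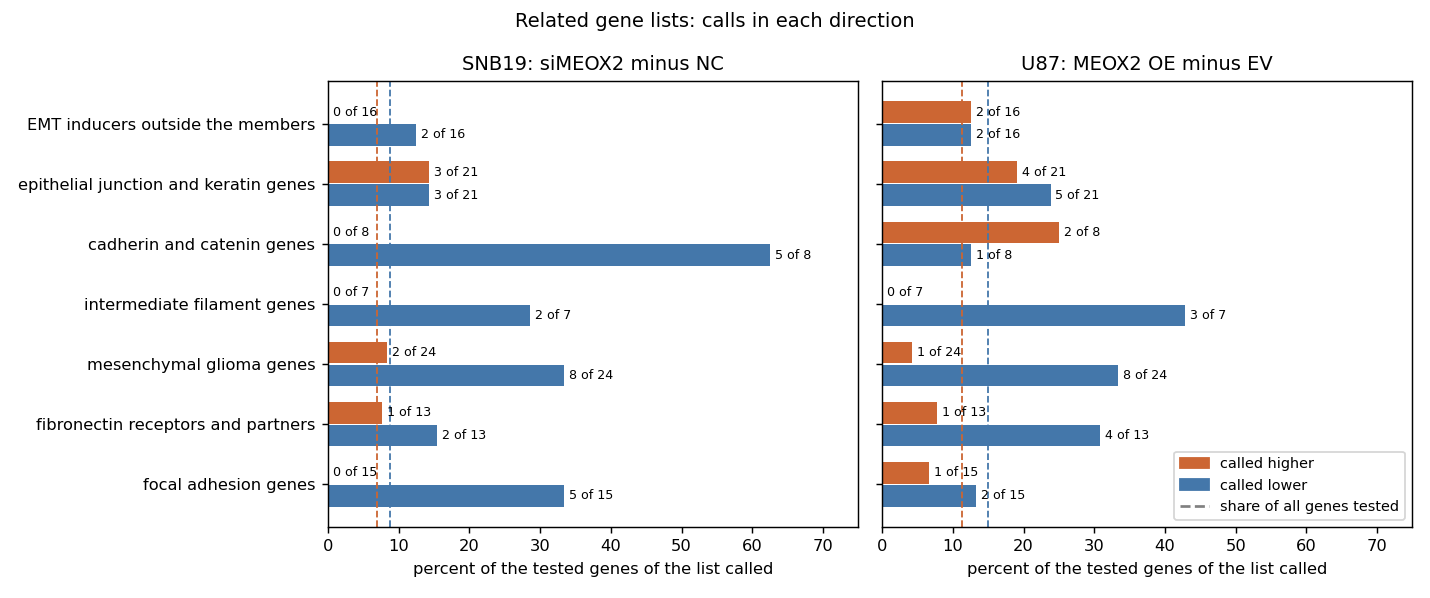
Percent of the tested genes of 7 related lists called higher (orange) or lower (blue) after knockdown in SNB19 (left) and overexpression in U87 (right) in the fit of 10 libraries; dashed lines give the share of all genes called in that direction. Mesenchymal glioma genes show 8 of 24 lower in both comparisons, and cadherin and catenin genes 5 of 8 lower in SNB19 but 1 of 8 in U87.

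The third question was whether the members answered a higher level of MEOX2 alike in the 2 lines. The contrast sets OE minus EV in U87 against NC minus siMEOX2 in SNB19, which share no library. Line, delivery and gain or loss of MEOX2 cannot be told apart in it. Lower MEOX2 in SNB19 and higher MEOX2 in U87 both went with lower estimates of VIM, NES, TWIST1 and FN1, although the SNB19 estimates of VIM (adjusted p = 0.104) and TWIST1 (adjusted p = 0.139, with overlapping groups) did not pass in this fit. The difference of the responses was called for each of the 4. It was -3.36 for VIM (SE 0.61, adjusted p = 0.00457), -5.24 for NES (SE 0.37, adjusted p = 4.21e-05), -2.17 for TWIST1 (SE 0.30, adjusted p = 0.00108) and -3.73 for FN1 (SE 0.58, adjusted p = 0.00206), all on the log2 scale. With CDH1, 5 of 9 tested members were called beside 24.4% of all genes tested, and the 4 named above were also called without EV replicate 1, beside 43% of all genes. CDH1 had 0 counts in EV, and its fitted difference is no measure of size.

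ZEB1, ZEB2 and SNAI2 had higher estimates with more MEOX2 in both lines. None of their SNB19 estimates passed in this fit (adjusted p = 0.096, 0.0583 and 0.0731 in that order). Their differences between lines were 0.57 (95% interval from -0.29 to 1.43, adjusted p = 0.301), 0.59 (from -0.39 to 1.57, adjusted p = 0.349) and 0.52 (from 0.14 to 0.91, adjusted p = 0.0503). The intervals of ZEB1 and ZEB2 allow a smaller, an equal or a larger response in U87. That of SNAI2 held only larger responses, although its adjusted p did not pass. Leaving out EV replicate 1 gave differences of 0.15 for ZEB1, 0.12 for ZEB2 and 0.48 for SNAI2, the last with an adjusted p of 0.00284. CDH2 gave -0.17 (interval from -0.77 to 0.42, adjusted p = 0.668) with all libraries and -0.43 (adjusted p = 0.0113) without EV replicate 1.

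**Figure D5:**
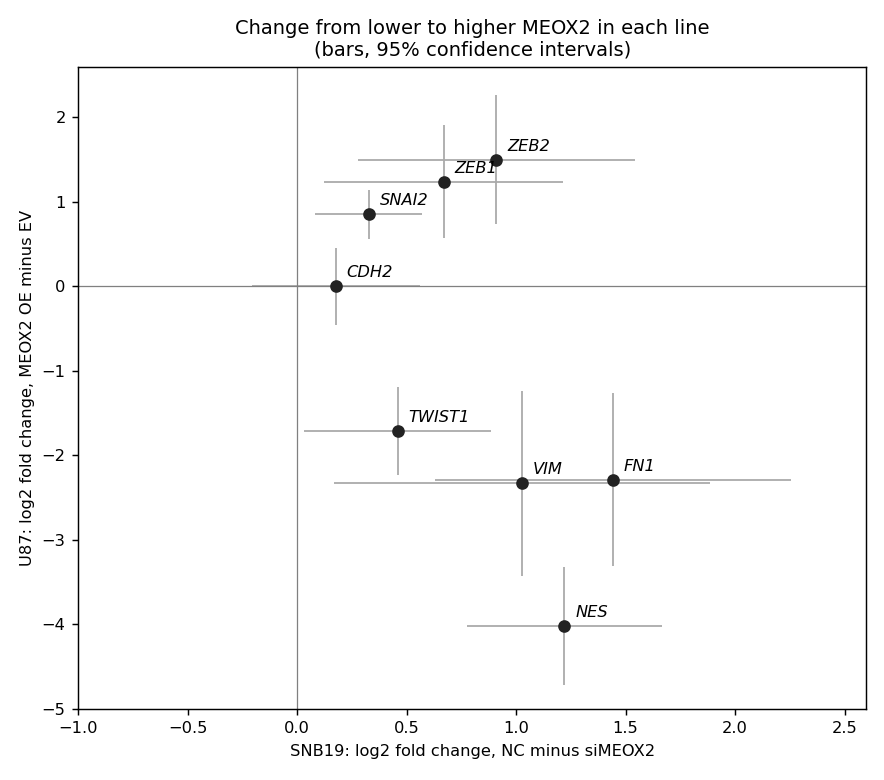
Log2 fold change from lower to higher MEOX2 in SNB19 (x, NC minus siMEOX2) and in U87 (y, OE minus EV) for 8 members, with 95% confidence intervals from the fit of 10 libraries (CDH1 and SNAI1 are left out). ZEB1, ZEB2 and SNAI2 lie in the upper right, while VIM, NES, TWIST1 and FN1 lie in the lower right, higher with MEOX2 in SNB19 and lower with it in U87. Of the members shown, only NES and FN1 were called in SNB19 in that fit.

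At baseline the control groups of the 2 lines differed in most members. NC held more NES and CDH1 than EV, and less VIM, CDH2, ZEB2, SNAI2 and TWIST1, so 7 of 9 tested members were called, beside 56.9% of all genes tested. Without EV replicate 1, FN1 was called too, making 8 members beside 63.4% of all genes. NES was 2.64-fold higher in SNB19 (log2 1.40, SE 0.23, adjusted p = 0.000774). CDH1, at 0 counts in EV, was at least 11.05-fold higher in NC against the floor of 3 counts over the EV group. MEOX2 itself was at least 165-fold higher in NC by the same floor.

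The lower levels in SNB19 were -2.05 for SNAI2 (SE 0.12), -1.88 for CDH2 (SE 0.18), -1.77 for TWIST1 (SE 0.20), -1.54 for ZEB2 (SE 0.30) and -2.02 for VIM (SE 0.42), as log2 fold changes. When EV replicate 1 was left out, the VIM value shrank to -0.73 and the others lay between -1.64 and -2.19. ZEB1 (0.44, adjusted p = 0.197) and FN1 (-0.44, adjusted p = 0.363) were not called. Both turned on the EV library: ZEB1 was -0.03 without replicate 1 and 1.11 without replicate 2, and FN1 was -1.07 without replicate 1 and 0.67 without replicate 2.

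The wider setting at baseline differed as well. Epithelial junction and keratin genes gave 12 calls higher and 3 lower in SNB19 of 21, against 28.1% and 28.8% of all genes tested, with KRT8 at 43.6 ± 1.72, KRT18 at 28.0 ± 1.00 and the plakoglobin gene JUP at 15.0 ± 0.781 FPKM in NC, and at 0.234 ± 0.140, 0.0510 ± 0.00954 and 0.00720 ± 0.0102 in EV. Mesenchymal glioma genes gave 15 lower and 3 higher of 24, and EMT inducers 8 lower and 3 higher of 16. Leaving out EV replicate 1 moved the median log2 fold change of the epithelial list from 1.79 to 1.81. For mesenchymal glioma genes it moved from -0.93 to -1.01 and for EMT inducers from -0.85 to -1.18. PRRX1 was listed at 0 in all NC libraries and at 13.0 ± 5.08 FPKM in EV.

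Within each group, members spanned a wide range of level per gene length. By group mean FPKM, VIM was the first of the 10 in all 4 groups, and SNAI1 and CDH1 were among the last 3 in each. FN1 came after VIM in NC and siMEOX2, whereas SNAI2 took that place in OE, at 47.3 ± 0.635 FPKM against 14.0 ± 1.64 for FN1. In NC the neighbours ZEB1 (4.29 ± 0.202) and CDH2 (4.26 ± 0.221) did not differ beyond their spread, and the same held in OE for CDH2 (14.3 ± 0.0591) and FN1. In EV no order below VIM is read, since FN1 (63.8 ± 58.4) varied nearly as much as its mean.

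These levels depend on the gene length used. The length implied by counts and FPKM equalled the union of all annotated exons (GENCODE release 29, GRCh38) for 9 of the 10 members. For ZEB2 (chr2:144364364-144524583, 48 transcripts) the implied length of 25061 bases was 2.62 times its longest coding transcript, for VIM (chr10:17228259-17237593) 2.42 times and for FN1 (chr2:215360440-215436172, 46 exons in the longest coding transcript) 1.94 times, while for NES (chr1:156668763-156677397) and SNAI1 (chr20:49982999-49988886) it was the same. FPKM of ZEB2, VIM and FN1 is therefore low beside that of NES on a per-transcript scale, with no bearing on comparisons of 1 gene between libraries.

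The remaining members lie at chr10:31318495-31529814 (ZEB1), chr8:48917604-48921740 (SNAI2), chr7:19020991-19117672 (TWIST1), chr16:68737225-68835548 (CDH1) and chr18:27950966-28177446 (CDH2). Genes on the opposite strand overlap VIM, CDH1, CDH2, ZEB1, ZEB2 and TWIST1 in that annotation, and without strand information reads in the overlaps cannot be told apart. ZEB1-AS1 was called higher in siMEOX2 (0.654 ± 0.0351 to 1.49 ± 0.137 FPKM, log2 1.10, adjusted p = 0.0182), opposite to the lower ZEB1 values. VIM-AS1 stayed between 0.943 and 3.94 FPKM, and ZEB2-AS1 at 0.0254 or below.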

How the data were processed

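RNA from 10 libraries of 2 human glioma cell lines was sequenced as polyA-selected, paired-end libraries with a kit that does not mark strand. The authors deposited raw counts per gene and FPKM for every library in 1 table. Per the labels, the submitters' processing notes name HISAT2, HTSeq 0.11.2 and DESeq2 1.26.0 with GRCh38; the annotation release is not given in the sources used here. Deposited FPKM equal the count divided by gene length and total counts, with no further scaling.

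Counts were filtered with filterByExpr, scaled by TMM and fitted with edgeR 4.0.16 (R 4.3.3) as 4 group means, and scripts were tested on simulated data. Alternatives were limma 3.58.1 on log2(FPKM + 1), DESeq2 1.42.0, other scaling, no filter, the groups compared alone, a replicate block and each library left out. Groups came from the sample titles, and other labels of the U87 samples name different MEOX genes in places. All 10 members and MEOX2 are named whatever their values; from each list, up to 4 called genes with the largest change and over 1 FPKM. Members and lists were chosen with earlier results of these data known. Counting error alone sets the floors of 3 counts. Marker genes of other cell types were also listed, with leukocyte markers at 0.547 to 0.990 FPKM in NC, 0.196 to 0.332 in siMEOX2, 0.164 to 0.226 in EV and 0.0423 to 0.206 in OE, and neuronal markers at 1.60 to 1.85 in NC and 1.79 to 1.95 in siMEOX2 (summed per library).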

Additional observations from a re-analysis of the deposited data

Results flagged for a closer look

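For VIM, NES, TWIST1 and FN1 the response to MEOX2 differed between the U87 and SNB19 comparisons by a test of the difference itself (edgeR, adjusted over all genes tested). Line, delivery and loss or gain of MEOX2 change together between these comparisons and cannot be told apart. As log2 values, U87 (OE minus EV) minus SNB19 (NC minus siMEOX2), the differences were -3.36 for VIM, -5.24 for NES, -2.17 for TWIST1 and -3.73 for FN1. VIM had -2.33 in U87 and 1.03 in SNB19, NES -4.02 and 1.22, TWIST1 -1.71 and 0.46, and FN1 -2.29 and 1.44. In SNB19 the VIM and TWIST1 estimates were not called (adjusted p = 0.104 and 0.139), and with the U87 libraries fitted alone 0 genes were. Without EV replicate 1 the differences were -2.02, -4.78, -1.97 and -4.31 in the same order. The fitted difference for CDH1 was 7.27 (adjusted p = 0.0313), but with 0 counts in both EV libraries and 9 counts in 1 of 2 OE libraries no difference is read from it. No group had the 4 libraries that a search for single outlying values needs.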

How the results depend on the processing

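In SNB19 the replicate numbers showed no clear pairing: same-numbered libraries deviated with correlations of -0.02, -0.05 and 0.10, and the others with -0.13 to 0.15. In U87 the values were -0.24 for same numbers and 0.24 for crossed numbers. With 2 libraries a group these can only be equal and opposite, so pairing in U87 cannot be judged from them. The label of an OE library also carries a second, conflicting replicate number. With the replicate block the genes called were 972 for knockdown (2725 without it), 2126 for overexpression (4538) and 2215 for the difference between lines (4229), and with crossed U87 numbers, chosen after seeing the data, 1786 for knockdown. With only the groups compared, 8683 genes and 8 members were called for knockdown and 0 and 0 for overexpression. For knockdown, DESeq2 called 6 of 9 tested members, beside 3901 of 17312 genes. The fit without a filter called 6 of 10, beside 2649 of 34567 genes. The replicate block, limma and total-count scaling called 2 of 9, 2 of 10 and 2 of 9. The genes called beside them were 972 of 17312, 3060 of 20832 and 2297 of 17312. FN1 was no longer past the threshold in these 3 (adjusted p = 0.0787, 0.0901 and 0.0751 in that order). For overexpression limma called 6 of 10 members, beside 3832 of 20832 genes, and FN1 was again lost (adjusted p = 0.0617). Leaving out 1 library gave 1148 to 8700 genes and 1 to 8 members for knockdown, 1553 to 10929 and 3 to 8 for overexpression, and 2265 to 10435 and 4 to 8 for the difference. The knockdown count was highest without EV replicate 2, and 8626 without EV replicate 1, while leaving out any SNB19 library gave 1148 to 1507.

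Direction turned for these members, none of them called with all libraries. CDH2 in overexpression was -0.0090 with U87 alone, -0.0052 without OE replicate 2, and from -0.26 without EV replicate 1 to 0.42 without EV replicate 2. CDH2 in the difference was 0.18 with limma and 0.082 with total-count scaling, and from -0.43 without EV replicate 1 to 0.25 without EV replicate 2. ZEB1 between control lines ran from -0.029 without EV replicate 1 to 1.11 without EV replicate 2. FN1 between control lines was 0.032 with the block, 0.17 with the crossed block, 0.18 with limma, and from -1.07 without EV replicate 1 to 0.67 without EV replicate 2. The cause was not tested. Total-count scaling, added after seeing the data, moved the median log2 fold change of all genes to 0.081 for knockdown, 0.14 for overexpression, 0.37 for the control lines and 0.25 for the difference. It changed the share of higher calls from 44.4, 43.0, 49.4 and 41.9% to 57.0, 53.3, 64.5 and 56.9%, and limma to 60.6, 61.2, 68.1 and 63.6%.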
